A study of Mus musculus with 38 samples.

Results

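Very broad open regions were taken as the autosomal peaks of endogenous tumour-infiltrating CD8+ T cells that spanned 3000 bp or more from the start to the end given in the peak name. There were 776 of them among 73610 peaks, or 1.09% of the 71358 autosomal peaks. The choice used width alone, with no threshold on the read values. The width of a peak is itself set by the reads from which it was called. Width and signal are thus not independent, and the levels given below are a description. The assay was ATAC-seq, in which the transposase Tn5 cuts accessible DNA, so that the number of reads in a peak measures how open that stretch was across the cells of a sample.

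The cells came from wild-type C57BL/6J mice, either young (10-12 weeks) or aged (64-68 weeks), on day 15 after B16-OVA melanoma cells (which make ovalbumin) had been inoculated. They were sorted on Slamf6 and Tim-3 into progenitor exhausted cells (Tprog, Slamf6+ Tim-3-), terminally exhausted cells (Tterm, Slamf6- Tim-3+) and an age-associated dysfunctional population negative for both (Tadys, TTAD in the series text, aged mice only). The table held 4 young Tprog, 3 aged Tprog, 5 young Tterm, 3 aged Tterm and 2 Tadys libraries, all with the batch entry "Batch 1 & 2", which does not tell one batch from the other. Each library was a pool of 5000 to 50000 cells. The series text speaks of 2 or 3 biological replicates, so that, with as many as 5 libraries in a group, some of the variation behind the p-values may be technical. Depth ran from 4635804 to 87558165 reads in peaks, and both Tadys libraries, at 8514962 and 12106936, were among the 5 shallowest. In such bulk samples a region open in fewer cells and a region less open in every cell cannot be told apart.

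Most accessible sites in a genome are short, the footprint of a promoter or an enhancer with its flanking nucleosomes pushed aside. A very broad accessible stretch can form where several regulatory elements lie side by side, as at strongly transcribed or cell identity genes, and broad low signal can also arise in repeated or poorly mapped sequence. In exhausted CD8+ T cells, progenitors depend on the transcription factor TCF-1, encoded by Tcf7, and terminally exhausted cells carry several inhibitory receptors, among them PD-1 and Tim-3, encoded by Pdcd1 and Havcr2.

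At 311 broad regions a listed gene start lay inside the region. The promoter windows of 5 such genes are printed because their regions carry the results below: Havcr2, Pdcd1 and Itgav lay in regions with more reads in Tterm than in Tprog of young mice, Tcf7 lay in the region with the lowest adjusted p of those with fewer, and Junb lay in the widest region over a listed start. Each window runs from 250 bases before to 50 bases after a gene start, is taken from RefSeq (GRCm38.p6, the assembly also called mm10), and is written 5′ to 3′ on the gene's strand. Capitals mark every match, on either strand, to 1 of 6 short motifs: TGTGGT for RUNX factors, TGANTCA for AP-1, GGAAGT for ETS factors, CTTTGAT for TCF factors, GGGCGG for Sp and KLF factors, and TATAAA for the box bound at some core promoters. The windows stand at chr11:46454681-46454980 (plus strand), chr1:94052504-94052803 (minus), chr11:52282965-52283264 (minus), chr2:83724147-83724446 (plus) and chr8:84978699-84978998 (minus).
Havcr2: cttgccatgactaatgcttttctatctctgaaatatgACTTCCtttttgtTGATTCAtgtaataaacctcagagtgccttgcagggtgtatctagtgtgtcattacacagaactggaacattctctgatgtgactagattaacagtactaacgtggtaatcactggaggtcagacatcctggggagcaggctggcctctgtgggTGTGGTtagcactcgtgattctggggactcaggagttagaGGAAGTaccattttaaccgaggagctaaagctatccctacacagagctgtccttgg
Pdcd1: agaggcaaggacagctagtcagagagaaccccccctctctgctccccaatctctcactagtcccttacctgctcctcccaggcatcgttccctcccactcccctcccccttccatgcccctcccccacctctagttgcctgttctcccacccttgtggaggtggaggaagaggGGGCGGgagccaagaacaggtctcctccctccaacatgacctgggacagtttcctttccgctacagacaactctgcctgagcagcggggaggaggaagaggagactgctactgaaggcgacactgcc
Tcf7: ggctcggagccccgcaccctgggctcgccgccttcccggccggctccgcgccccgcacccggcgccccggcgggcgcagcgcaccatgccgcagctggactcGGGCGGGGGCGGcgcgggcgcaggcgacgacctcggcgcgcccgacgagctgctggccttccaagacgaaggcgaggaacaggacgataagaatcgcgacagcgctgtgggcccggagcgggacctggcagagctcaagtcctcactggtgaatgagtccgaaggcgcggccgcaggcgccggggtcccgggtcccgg
Itgav: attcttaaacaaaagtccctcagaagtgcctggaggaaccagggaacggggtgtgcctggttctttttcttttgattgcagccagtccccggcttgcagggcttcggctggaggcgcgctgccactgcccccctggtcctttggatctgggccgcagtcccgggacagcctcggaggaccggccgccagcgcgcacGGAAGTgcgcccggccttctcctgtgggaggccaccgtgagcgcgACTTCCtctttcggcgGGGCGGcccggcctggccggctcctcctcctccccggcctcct
Junb: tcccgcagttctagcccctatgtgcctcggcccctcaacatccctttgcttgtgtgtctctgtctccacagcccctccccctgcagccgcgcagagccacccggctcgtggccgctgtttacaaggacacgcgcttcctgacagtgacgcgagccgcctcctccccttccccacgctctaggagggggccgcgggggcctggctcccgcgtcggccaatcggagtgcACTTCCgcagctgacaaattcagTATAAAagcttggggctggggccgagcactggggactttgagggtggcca
The Havcr2 window held 45.3% G and C and matches to the RUNX, AP-1 and ETS motifs. The Tcf7 window printed held 76.3% G and C, 45 CpG dinucleotides and 2 Sp/KLF matches. Another Tcf7 window in the same region (chr11:52282546-52282845, not printed) held 64.3% G and C and 17 CpG. It had 2 ETS, 1 Sp/KLF and 1 TATA match. In the Pdcd1 window the G and C share was 60.7% with only 5 CpG. The Itgav window had 2 ETS matches and 1 Sp/KLF match, and the Junb window 1 ETS and 1 TATA match.

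Over all promoter windows lying in broad regions (428 windows of 345 genes) the median G and C share was 64.2%, against 62.0% for 11163 windows in narrower autosomal peaks and 48.7% for 8471 windows in no peak. The Sp/KLF letters stood in 66.8% of windows in broad regions, 67.6% of those in narrower peaks and 47.0% of all 20062 autosomal windows. The ETS letters stood in 20.8%, 28.6% and 25%, and the RUNX letters in 9.35%, 12.0% and 14.8%. AP-1 letters were in 4.91%, 4.53% and 7.06%, TCF letters in 1.40%, 2.26% and 3.25%, and TATA letters in 7.01%, 6.20% and 12.7%. CpG dinucleotides stood at 0.80 of the number that base composition gives in the median window of broad regions, 0.78 in narrower peaks and 0.22 in no peak, so windows in broad regions were much like those in narrower peaks in this respect. A match is a description of the letters and not a binding site.

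Width and read density varied widely among the 776. The median width was 3398.5 bp (quartiles 3148 and 3807.5), against 909 bp for all autosomal peaks, and the widest spanned 86475 bp. Only 153 were 4000 bp or wider, 59 were 5000 bp or wider and 12 were 10000 bp or wider. Together they covered 3.07 Mb, 4.18% of all autosomal peak bases, and held 4.51% to 5.06% of the normalized reads of a library. Density, the mean of the 17 libraries in normalized reads per kb of region, had a median of 289 (quartiles 127 and 449.7), against 103 for all autosomal peaks. At the threshold, the last regions included were one in Cd200r3 (3000 bp, 20.8 normalized reads per kb), one in Ankrd55 (3000 bp, 215 per kb) and one by Zfp763 (3001 bp, 18.5 per kb). Those just missed were at Usp6nl (2999 bp, 196 per kb), Ndfip1 (2997 bp, 642 per kb) and Gata6 (2996 bp, 105 per kb).

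**Figure D1:**
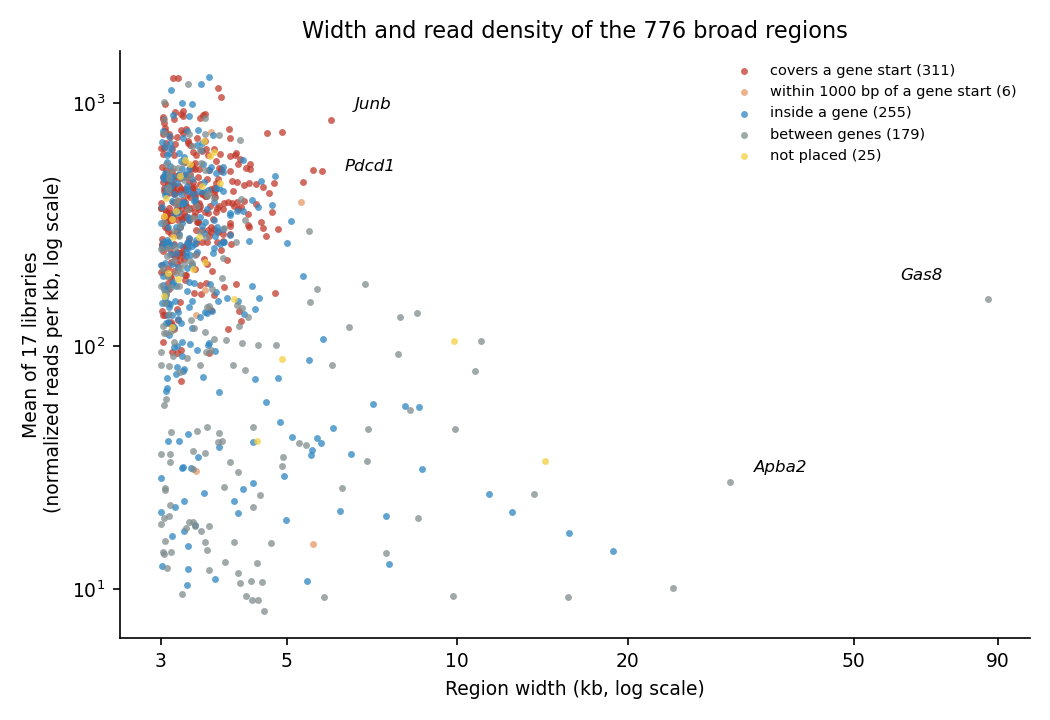
Width (x axis, kb, log scale) and mean density over the 17 libraries (y axis, normalized reads per kb, log scale) of the 776 broad regions, each a point coloured by its place among the gene starts RefSeq's promoter table lists. Regions over a gene start fill the upper left, and 9 of the 12 regions of 10000 bp or more lie under 50 reads per kb.

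Most of the widest regions were thin in reads, with 9 of the 12 of 10000 bp or more under 50 normalized reads per kb. The widest of all was not, and lay 937 bp from Gas8 (chr8:123537594-123624069, 156 normalized reads per kb), with 11203 to 19780 normalized reads per library. Next came one 5478 bp from Apba2 (chr7:64465774-64496082, 30308 bp, 27.6 per kb), one on chromosome 7 with no protein-coding gene within 100000 bp (chr7:59546278-59570301, 24023 bp, 10.1 per kb), one in Ulk4 (18850 bp, 14.4 per kb) and one in Flg2 (15736 bp, 16.9 per kb). Another on chromosome 7 (chr7:59581657-59597321, 15664 bp, 9.32 per kb), one by Cyp2c29 (13667 bp, 24.6 per kb), one in Flg (12499 bp, 20.8 per kb) and one in Ttc34 (11384 bp, 24.7 per kb) followed, and one lay on chromosome 18, by Dsg2. None of the 12 regions of 10000 bp or more covered a gene start. Cyp2c29 belongs to a family of closely related genes, so its reads may be shared between copies. The sources used here do not say how reads with several alignments were treated or how neighbouring peaks were merged. Both bear on the widest regions. A run of 12 thin regions between positions 59059358 and 59597321 of chromosome 7 added up to 86646 bp, at 8.99 to 14.2 reads per kb.

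Several of the densest regions lay at regulators of transcription and signalling. Bhlhe40, a transcriptional repressor induced by activation, led with 1275 normalized reads per kb (chr6:108658094-108661738), followed by Mnt, a partner of Max that opposes Myc (1271 per kb, chr11:74829852-74833069), and the predicted gene LOC108167694 (1271 per kb). A region 30178 bp from Scaf8 had 1195 per kb, and one in Kdm6b, a histone demethylase of H3K27, had 1193 per kb. Klf13, a zinc finger factor, had 1158 per kb, Bach2, a repressor that holds back effector differentiation, had 1130 per kb at one of its regions (chr4:32248403-32251530), and Dusp2, a phosphatase of activated MAP kinases, had 1063 per kb. Among regions over a listed start the widest were at Junb, an AP-1 subunit (chr8:84974376-84980363, 5987 bp, 855 per kb), and Pdcd1 (chr1:94051042-94056803, 5761 bp, 523 per kb). Both were dense as well as wide.

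Of the 751 broad regions placed against RefSeq gene starts (25 on chromosome 18 were not placed), 311 (41.4%) covered a gene start, 6 lay within 1000 bp of one, 255 (34.0%) lay inside a gene and 179 (23.8%) between genes. For all autosomal peaks 13.5% covered a gene start, 47.1% were inside a gene and 38.1% between genes. The shares over a gene start are lower bounds and those inside a gene may be too high, since the starts of some genes were not used here, and 109 of the broad regions counted as inside a gene lay in such a gene. Leaving such peaks aside, 48.4% of 642 broad regions and 15.2% of 61506 autosomal peaks covered a start. A wider peak covers more starts by its length alone, and of peaks of 1000 to 3000 bp 27.0% covered one (30.7% with such peaks left aside). A gene start within 500 bp of the peak centre, which does not grow with width, was found for 15.4% of broad regions, 12.1% of all autosomal peaks and 24.0% of peaks of 1000 to 3000 bp. Placement went with density. No region under 50 reads per kb (0 of 114 placed) covered a start, against 17.9% at 50 to 150, 40.5% at 150 to 300, 64.7% at 300 to 500 and 56.8% above 500. Among the 148 placed regions of 4000 bp or more, 28.4% were at a start or within 1000 bp of one, against 42.2% of all those placed.

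The broad regions named 669 nearest protein-coding genes. For 59 no such gene lay within 100000 bp, and 36 genes had 2 or more broad regions. Scaf8, Gm21119 and Sik3 had 4 each, and Nfatc1, Ahnak, Lfng, Akap13, Itpkb, Ppp2r5c and Trim8 were also among those with several. All those of Scaf8 and Gm21119 lay between genes, and those of Scaf8 started before position 3300000 of chromosome 17. Of 351 genes in the lists used here, 77 had a broad region, 85 regions in all. That was 11% of broad regions, while 4.67% of autosomal peaks lay at these genes. CD8 T cell identity and receptor signalling genes had 13 broad regions at 12 of 29 genes, including Cd3e and Cd3g of the T cell receptor complex, the coreceptor gene Cd8b1, Cd2, Cd27 and the kinase gene Fyn. T cell transcription factors had 23 at 18 of 57 genes, and inducible feedback and survival regulators 15 at 15 of 41. Actin and motility genes had 9 of 26, and inhibitory receptors 4 of 20 (Havcr2, Pdcd1, Lag3 and Cd101). Effector molecules had 2 of 26 (Srgn, and a region 12706 bp from Ifng), and AP-1 genes had 3 of 12 (Jun, Junb and Mafk). Slamf6, the other gene sorted on, had none. Broad regions made up 3.10% of autosomal peaks at CD8 identity genes, 2.25% at transcription factors and 2.09% at inhibitory receptors. Lists not of T cell identity had higher shares in part, with 4.85% at cell cycle, 4.41% at interferon and antigen presentation and 4.26% at myeloid genes. At progenitor and memory receptors the share was 0.88%, and over all autosomal peaks 1.09%. As a check of the label, the T cell gene Cd3e had 937 to 1545 normalized reads in every one of the 17 libraries and Cd8b1 337 to 580.4. For other cells, no broad region lay at a B cell, CD4 or melanocyte list gene. Those lists had only 36, 20 and 15 autosomal peaks, so few broad regions could be looked for there. There were 2 by Fcgr3 (myeloid list) and 1 by Tyrobp (NK list), none of them called in any comparison below. Those by Fcgr3 had 368 and 335 normalized reads per kb and that by Tyrobp 226, while the Cd3e region had 377. Whether other cells gave these reads was not tested.

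Levels were similar between groups at most broad regions. The median density per library averaged 274 ± 12.2 (SD, n = 4) normalized reads per kb in young Tprog, 284 ± 1.64 (SD, n = 3) in aged Tprog, 304 ± 14.0 (SD, n = 5) in young Tterm, 302 ± 14.9 (SD, n = 3) in aged Tterm and 258 ± 19.9 (SD, n = 2) in Tadys. When libraries were scaled to equal totals the first 4 of these became 289.8, 288.5, 287.1 and 296.4 and Tadys 269.8, so the order of the first 4 rests on the scaling. The ratio of the highest to the lowest group mean had a median of 1.42 over the 776, and it was under 1.5 at 459 regions and 2 or more at 134. Between libraries of a group the coefficient of variation had a median of 38.2% in young Tprog at regions under 50 reads per kb and 8.22% at those above 500, so the dense regions were measured far more precisely.

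In young mice the question was which broad regions separated Tterm from Tprog. By limma on log2(normalized reads + 1), with Benjamini-Hochberg adjustment over all 71756 peaks tested and a threshold of 0.05, 221 of the 776 broad regions were higher and 46 lower in Tterm, 34.4% in all. Among all peaks tested 25.6% were called, 14.3% higher and 11.3% lower. The median log2 difference was 0.14 over the broad regions and -0.013 over all peaks. This split turned with the scaling: 114 were higher and 103 lower with equal library totals, where the median of all peaks moved to -0.17, and 55 were higher and 136 lower after quantile normalization. The edgeR and DESeq2 count tests gave 200 and 52, and 241 and 47. Calls kept under both other scalings and both count tests numbered 55 higher and 42 lower.

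**Figure D2:**
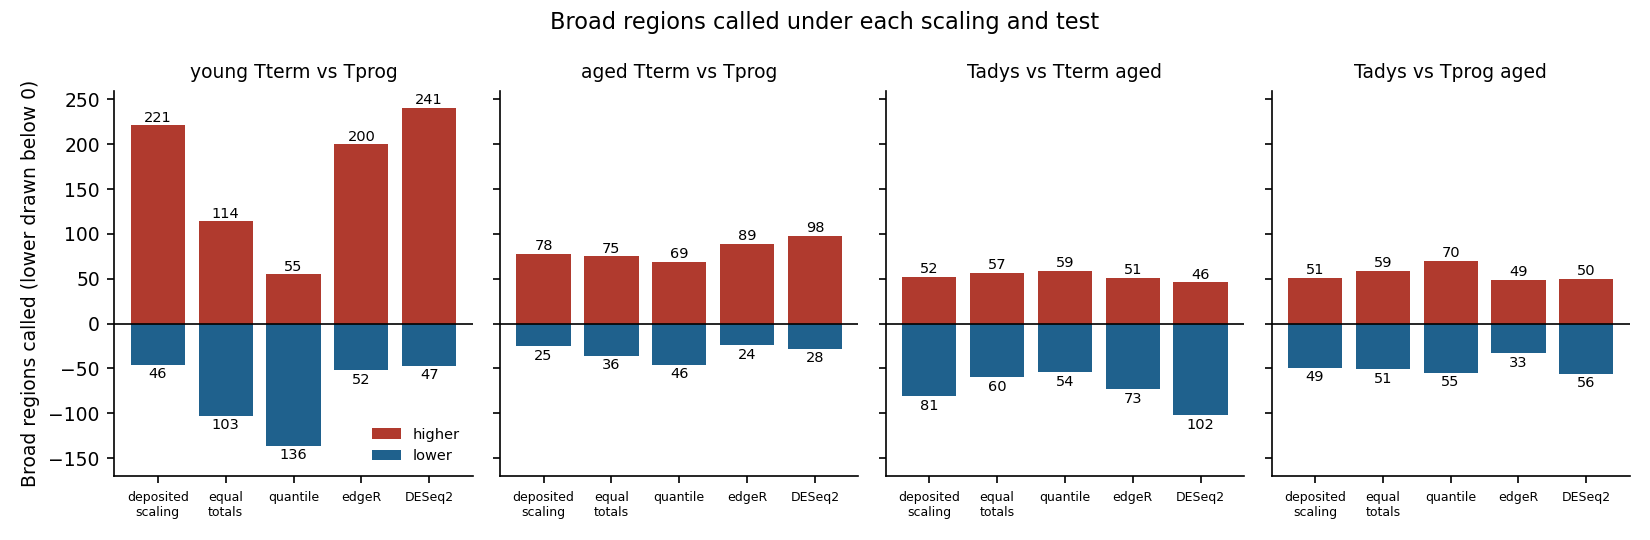
Number of the 776 broad regions called higher (red, above 0) and lower (blue, drawn below 0) in 4 comparisons (panels), under the deposited scaling, equal library totals, quantile normalization, edgeR and DESeq2 (x axis). In young Tterm against Tprog the deposited scaling gives 221 higher and 46 lower, and quantile normalization 55 and 136.

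The 8 regions with the lowest adjusted p on each side kept their calls under every scaling and count test run. Havcr2 encodes Tim-3, on which the cells were sorted, so its region (chr11:46452527-46456391, over the gene start) checks the labels and is no finding. It held 716, 715, 733 and 693 normalized reads in the young Tprog libraries and 1442, 1622, 1510.2, 1651 and 1707 in young Tterm, with a log2 difference of 1.15 ± 0.10 (SE, limma adjusted p 1.64e-09). In aged mice its region held 561, 601 and 683 in Tprog and 1491, 1482 and 1542 in Tterm. Every Tterm library stood above every Tprog library at both ages.

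Pdcd1, the gene of the inhibitory receptor PD-1, had a region that spans the gene start and 5761 bp in all. Its normalized reads were 2356, 2419, 2639.5 and 2522 in young Tprog and 3294, 4078, 3728, 3399 and 3442 in young Tterm, a log2 difference of 0.53 ± 0.10 (SE, limma adjusted p 0.000177). In aged libraries they were 2640.1, 2764 and 2337 in Tprog and 3655, 3750.4 and 3679 in Tterm, and the difference was 0.52 ± 0.12 (SE, limma adjusted p 0.00349). Again the groups did not overlap at either age. The other inhibitory receptor regions, in Lag3 and Cd101, were higher in young Tterm as well (log2 0.35 and 0.53, limma adjusted p 0.0111 and 0.000589). Neither kept its call after quantile normalization, and in aged mice the differences of 0.36 and 0.14 did not pass. All 4 inhibitory receptor regions, that of the sort gene Havcr2 among them, were thus called higher in young mice and 2 in aged mice. Of all 190 peaks tested at the genes of this list, 50 were higher and 45 lower in young mice (median log2 -0.035). In aged mice 31 were higher and 23 lower.

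Adrb1, which encodes an adrenergic receptor, had a pair of broad regions. The one over its start (chr19:56721338-56724481) held 544, 485, 436 and 408 normalized reads in young Tprog and 909, 1085, 1108, 1131 and 1029.7 in young Tterm (log2 1.17 ± 0.12 (SE), limma adjusted p 3.09e-08). The one 39003 bp away (chr19:56678899-56683114) held 934, 935, 831 and 848 and 1727, 2289.8, 2084, 1989 and 2058 (log2 1.19 ± 0.10 (SE), limma adjusted p 1.93e-09). No young Tprog library reached the lowest Tterm library at either. Aged Tterm against Tprog differed by 0.94 ± 0.15 and 0.91 ± 0.13 (log2, SE).

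Itgav, the gene of the integrin alpha V chain, was covered at its start by a region (chr2:83722826-83726274) with 1184, 1277, 1622 and 1473 normalized reads in young Tprog and 2008, 2563, 2454, 2233 and 2099 in young Tterm. The log2 difference was 0.71 ± 0.10 (SE, limma adjusted p 5.82e-06). A region in Slc5a11, a sodium-coupled solute carrier, rose from 554 ± 53.4 (SD, n = 4) to 1294 ± 144 (SD, n = 5) (log2 1.22 ± 0.11 (SE), limma adjusted p 4.52e-09). One 17221 bp from Rgs8, a regulator of G protein signalling (chr1:153632358-153635738), rose from 1119 ± 77.5 (SD, n = 4) to 2326 ± 330.2 (SD, n = 5) (log2 1.05 ± 0.10 (SE), limma adjusted p 1.72e-08). At all 3 the young libraries of the 2 populations did not overlap.

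Several of the strongest regions had no protein-coding gene within 100000 bp. One on chromosome 12 (chr12:25225972-25229380) held 388, 434, 424 and 455 normalized reads in young Tprog and 909, 986, 1196, 1053 and 1109 in young Tterm, and 342, 397 and 403 and 1095, 1099 and 1032 in the aged groups. Its log2 difference was 1.3 ± 0.11 in young and 1.5 ± 0.14 in aged mice (SE, limma adjusted p 2.29e-09 and 6.25e-08). At chr2:166446110-166449204 the means were 834 ± 51.5 (SD, n = 4) in young Tprog and 1704 ± 217 (SD, n = 5) in young Tterm (log2 1.02 ± 0.10 (SE)), and at chr2:128427725-128431309 they were 1371 ± 90.4 (SD, n = 4) and 2462 ± 34.4 (SD, n = 5) (log2 0.85 ± 0.087 (SE)). Every Tterm library was above every Tprog library of its age at all 3.

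On the lower side, Tcf7 stood first. Its region (chr11:52280792-52284473, over gene starts) held 626, 646, 820.2 and 931 normalized reads in young Tprog and 212, 190.0, 231, 211 and 248 in young Tterm, a log2 difference of -1.77 ± 0.14 (SE, limma adjusted p 3.73e-10). The aged libraries had 930.0, 818 and 832 in Tprog and 269.5, 312 and 307 in Tterm, a difference of -1.54 ± 0.17 (SE, limma adjusted p 4.93e-07). The highest Tterm library of either age lay below every Tprog library. A second region on the same stretch of chromosome 11 (chr11:52340429-52343618), 17233 bp from the mitochondrial channel gene Vdac1, went the same way. It held 971, 1099.7, 1057 and 1035 in young Tprog and 399, 338, 373, 365 and 392 in young Tterm (log2 -1.48 ± 0.12 (SE), limma adjusted p 1.04e-09).

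St6gal1, a sialyltransferase gene, had a region over its start (chr16:23223204-23226826) with 900.5, 1075, 1159 and 1001 normalized reads in young Tprog and 484, 460.1, 465, 487 and 391 in young Tterm. The log2 difference was -1.17 ± 0.11 in young and -0.92 ± 0.14 in aged mice (SE, limma adjusted p 1.13e-08 and 3.63e-05). Tnfsf8, the gene of CD30 ligand (chr4:63859170-63863235, over the start), had 974, 942, 1137 and 1021 in young Tprog and 512, 370.1, 551, 464 and 393 in young Tterm, with differences of -1.16 ± 0.13 and -0.84 ± 0.16 (SE, limma adjusted p 1.69e-07 and 0.000596). Neither gene showed any overlap between Tprog and Tterm libraries of the same age. Regions in Rnf157, a ubiquitin ligase gene (log2 -1.0 ± 0.13, SE), in the zinc finger gene Hivep2 (log2 -0.74 ± 0.12, SE) and in the repressor gene Klf3 (log2 -0.96 ± 0.16, SE) were lower too.

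**Figure D3:**
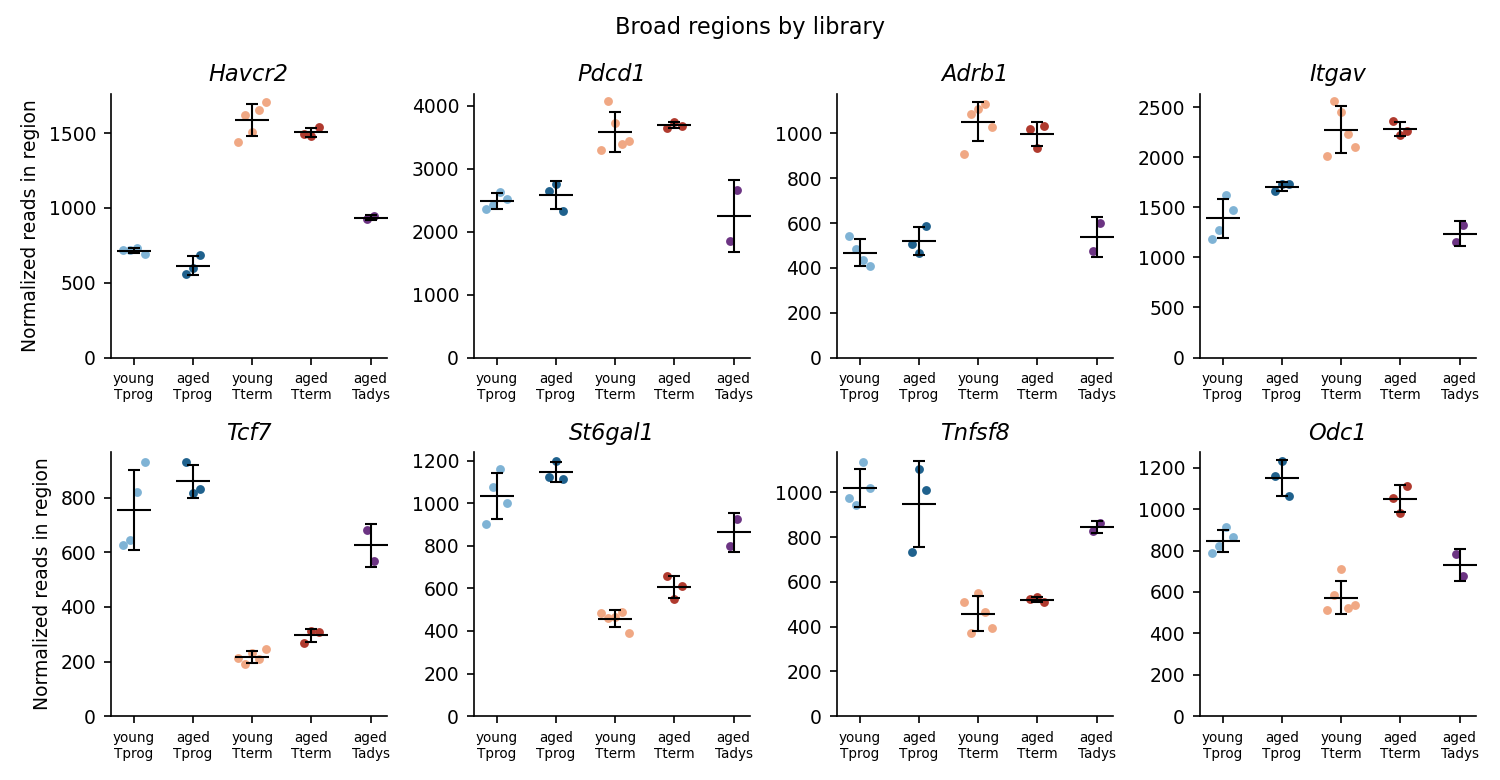
Normalized reads (y axis) in 8 broad regions for each library (points) of the 5 endogenous groups (x axis), with the group mean (line) and SD (bar). For Adrb1 the region over the gene start is drawn. Havcr2, Pdcd1, Adrb1 and Itgav stand higher in Tterm than in Tprog of young mice, Tcf7, St6gal1 and Tnfsf8 lower, and Odc1 is the region that differs by age in Tterm.

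Among T cell transcription factors, 6 of 23 broad regions were higher in young Tterm (in Klf13, Nr4a2, Bhlhe40, Fli1 with 2, and by Klf6) and 4 lower (Tcf7, Bach2, Klf3 and Runx3), with a median of 0.13. All 1007 peaks tested at these genes gave 160 higher and 211 lower (median -0.086). Only Klf13 of the 6 higher calls held under both other scalings, while all 4 lower ones did. Runx3, a factor of cytotoxic cells, was close to the threshold (log2 -0.54 ± 0.20 (SE), limma adjusted p 0.045) and kept its call in 3 of 9 fits that left out 1 library. Bach2 showed that broad regions of one gene can part ways. Its region at chr4:32423658-32426955 held 1697, 1822, 1773 and 1665 normalized reads in young Tprog and 1136, 1153, 873, 840.0 and 709.8 in young Tterm (log2 -0.91 ± 0.13 (SE), limma adjusted p 8.99e-06). Its denser region at chr4:32248403-32251530 held 3477, 4011, 3065 and 3135 and 3581, 4066, 3204, 3123 and 3429, which overlap (log2 0.026 ± 0.11 (SE), limma adjusted p 0.892). Fyn was similar, with log2 -0.58 ± 0.13 at one region and -0.010 ± 0.11 at the other (SE, limma adjusted p 0.00113 and 0.96). In neither gene was the difference between its regions tested.

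The CD8 identity and receptor signalling regions hardly moved: 1 of 13 was higher (Sh2d2a, an adaptor gene, log2 0.53 ± 0.093, SE) and 1 lower (Fyn), and the median was 0.0046, against 50 higher and 61 lower of all 417 peaks tested at these genes (median -0.051). At Cd3e the means were 1265 ± 133 (SD, n = 4) in young Tprog and 1335 ± 148 (SD, n = 5) in young Tterm. Of the 15 regions of inducible feedback and survival regulators, 6 were higher, in or by Bcl2l1, Btg1, Dusp6, Dusp2, Gadd45g and Ier5. Odc1, the rate-limiting enzyme of polyamine synthesis, and Tnfaip3, an inhibitor of NF-kappaB, were lower. Of all 488 peaks tested at these genes 95 were higher and 68 lower. Of these 8 calls, those at the survival gene Bcl2l1 (log2 0.59 ± 0.11, SE), Odc1 and Tnfaip3 held under both other scalings. At the immediate early gene Ier5 the difference of 0.27 turned to -0.061 after quantile normalization, which did not pass. Of 9 actin and motility regions, 7 were called higher (Myh9, Cap1, Cfl1, Coro1a, Cotl1, Arpc5 and Arpc1b), from 0.27 to 0.64, against 50 higher and 25 lower of all 241 peaks tested at these genes (median 0.035). Of the 7 calls, 2 held under both other scalings, Myh9 (non-muscle myosin heavy chain) and Cap1 (an actin-binding protein). None of the 3 AP-1 regions passed, and Junb had 4612 ± 296 (SD, n = 4) and 5475 ± 571 (SD, n = 5) (log2 0.24 ± 0.10 (SE), limma adjusted p 0.0648).

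The log2 difference rose with density, from negative in thin regions to positive in dense ones. In young Tterm against Tprog the median log2 difference was -0.30 at regions under 50 normalized reads per kb, -0.18 at 50 to 150, 0.11 at 150 to 300, 0.21 at 300 to 500 and 0.32 above 500. Of the 145 regions above 500 per kb, 94 were called higher and 0 lower, and of the 116 under 50 per kb, 0 were higher and 8 lower. After quantile normalization, which forces the same distribution on every library, the medians in the same order were -0.16, -0.27, -0.14, -0.083 and 0.033, and 19 regions above 500 per kb were higher and 7 lower. The rise with density was thus much smaller under that scaling. Under the deposited scaling, narrower peaks (under 3000 bp) below 50 per kb were alike. Of 8869 tested, 0.733% were higher and 5.51% lower (median -0.29), against 0% and 6.90% of the broad ones. At 50 per kb or more, 16.4% of narrower peaks were higher and 12.4% lower (median 0.029). Of the 660 broad regions there, 33.5% were higher and 5.76% lower (median 0.19).

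**Figure D4:**
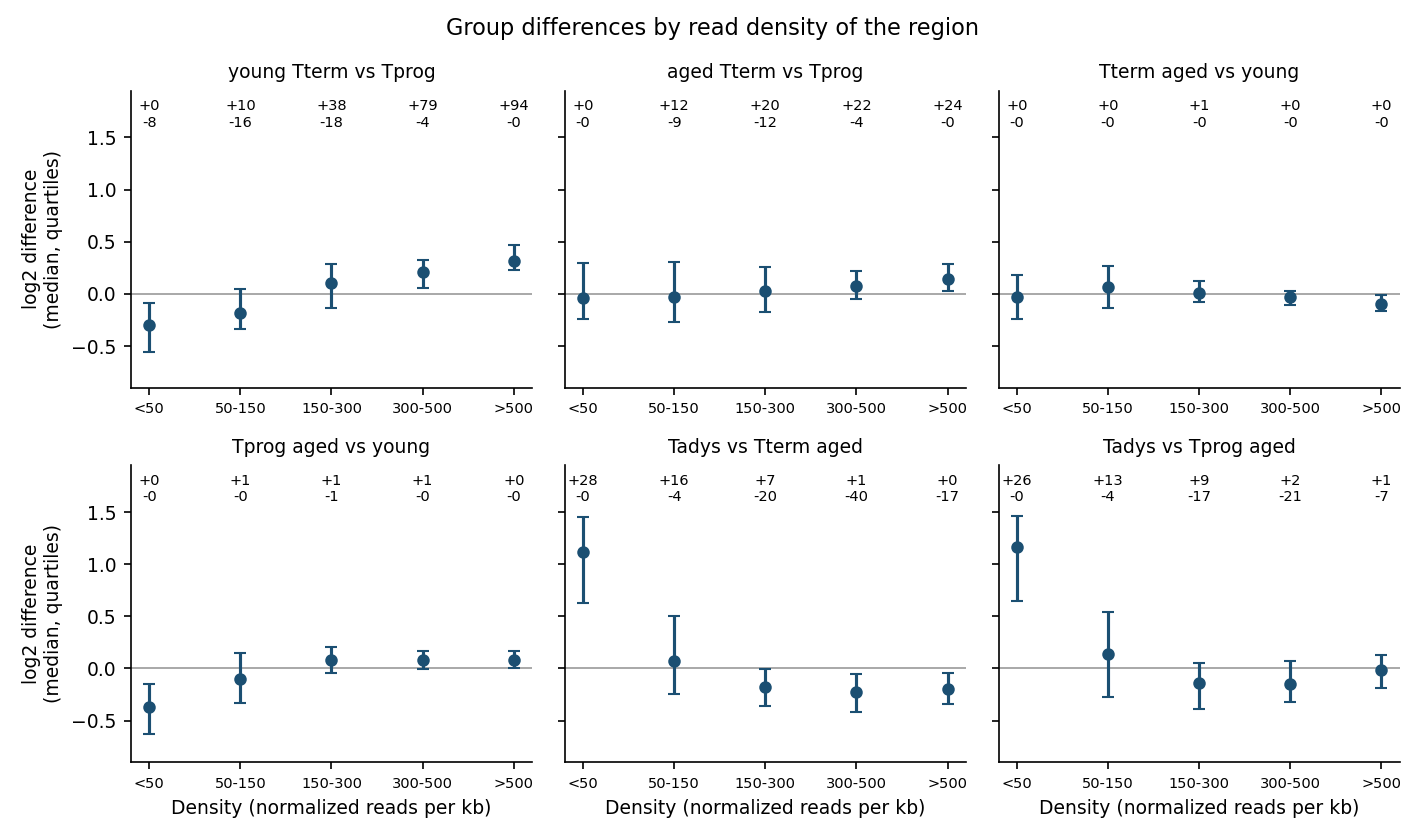
Median log2 difference (points, with quartiles as bars) of the broad regions in 5 classes of density (x axis, normalized reads per kb) for 6 comparisons (panels). The numbers at the top give the regions called higher (+) and lower (-). Medians climb with density in young Tterm against Tprog and are highest, at 1.12 and 1.16, in the class under 50 per kb in Tadys against Tterm and Tprog.

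In aged mice 78 broad regions were higher and 25 lower in Tterm than in Tprog (limma, 13.3%, against 12.1% of all peaks tested, 6.75% higher and 5.37% lower). With equal totals the counts were 75 and 36, and with quantile normalization 69 and 46. Calls that held under both scalings and both count tests numbered 64 and 23. The regions of lowest p were largely those just described: Havcr2, the pair of intergenic regions on chromosome 12, the region by Rgs8 and the intergenic ones on chromosome 2 on the higher side, and Tcf7, the region by Vdac1, St6gal1, Rnf157, Tnfsf8, Bach2 and Fyn on the lower. A region in Arsb, a lysosomal sulfatase gene, was also higher (437 ± 65.8 (SD, n = 3) against 876 ± 48.7 (SD, n = 3), log2 1.01 ± 0.15 (SE), limma adjusted p 2.2e-05). Of the lists, transcription factors had 1 of 23 regions higher (Bhlhe40) and 4 lower (Tcf7, Bach2, Klf3 and Zeb1). All 1007 peaks tested at these genes gave 90 higher and 100 lower. Feedback and survival regulators had 3 of 15 higher (Bcl2l1, Btg1 and Dusp2), against 51 higher and 36 lower of all 488 peaks tested. None of the 9 actin regions passed, and of all 241 peaks tested at those genes only 13 were higher and 5 lower. The test of whether the Tterm to Tprog difference itself changed with age found 0 of 776 broad regions with limma (0% of all peaks tested, of which 5676 had an unadjusted p under 0.05). DESeq2 gave 2 broad regions and edgeR 0. Calls in aged mice were sensitive to single libraries: without aged Tterm 2 they were 46 higher and 15 lower, without aged Tterm 3 42 and 14, without aged Tprog 2 46 and 15, and without aged Tprog 3 49 and 15.

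Age itself moved few broad regions. In Tterm 1 of 776 was higher in aged mice and 0 lower (limma, against 0.00836% of all peaks tested, 0.00697% higher and 0.00139% lower). It was the region inside Odc1 (chr12:17551253-17554724), with 514, 584, 711, 521 and 535 normalized reads in the young Tterm libraries and 1056, 981 and 1113 in the aged ones. Every aged library stood above every young one, and the log2 difference was 0.88 ± 0.12 (SE, limma adjusted p 0.00333). Without aged Tterm 3 it was 0.84 with a limma adjusted p of 0.0851, and with a replicate block, which the libraries did not support as pairs, 0.84 with 0.0807, so neither passed. In Tprog the Odc1 region had 789, 822, 914 and 866 in young and 1161, 1235 and 1062 in aged libraries, which also did not overlap, but the difference of 0.44 ± 0.13 did not pass (SE, limma adjusted p 0.141).

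In Tprog 3 broad regions were higher and 1 lower in aged mice (limma, 0.515%, against 0.166% of all peaks tested, 0.0822% higher and 0.0836% lower). Cacng8, which encodes an auxiliary subunit of a neuronal glutamate receptor, had 395, 315, 300.1 and 345 normalized reads in young Tprog and 553, 666 and 716 in aged Tprog (chr7:3409356-3412399, log2 0.93 ± 0.15 (SE), limma adjusted p 0.0123). This call held in all 7 fits without 1 library. In Tterm the same region had 542, 725, 581, 497 and 549 in young and 502, 566 and 517 in aged mice, which overlap, so only Tprog separated the ages there. Whether the age effect differed between the populations did not pass at this region (limma adjusted p 0.327).

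The second was a region over gene starts of Sp110 and Sp140, nuclear body proteins of a family of near-identical copies, so its reads are uncertain (chr1:85598318-85601508). It held 829.6, 988, 963 and 829 in young and 1468, 1621 and 1271 in aged Tprog (log2 0.68 ± 0.13 (SE), limma adjusted p 0.0246). In Tterm it held 834, 1001, 949.8, 846 and 923 and 1343, 1648 and 1269, a difference of 0.63 ± 0.12 that did not pass (SE, limma adjusted p 0.0876). All aged libraries of both populations, and both Tadys libraries at 1266 and 1613, were above all young ones. The Tprog call held in 3 of 7 fits without 1 library. An intergenic region at chr6:31114318-31117961 was higher by 0.82 ± 0.15 (log2, SE), a call held in 4 of 7 such fits. One by Vmn1r2, of another large gene family, had a log2 difference of -0.77 ± 0.15 (SE) and held its call in 1 of 7. Without aged Tprog 1 or young Tprog 4 a single call was left in this comparison, and without young Tprog 1 or aged Tprog 2 there were 2.

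Tadys differed from the other aged populations in both directions. Against aged Tterm, 52 broad regions were higher and 81 lower (limma, 17.1%, against 6.3% of all peaks tested, 2.06% higher and 4.23% lower). Against aged Tprog, 51 were higher and 49 lower (limma, 12.9%, against 6.65%, 2.61% higher and 4.04% lower). The split against Tterm was 57 and 60 with equal totals and 59 and 54 with quantile normalization. These counts rest on 2 shallow Tadys libraries and on the spread of all 5 groups. With the compared groups fitted alone they fell to 33 higher and 14 lower against Tterm, which turned the balance, and to 25 and 3 against Tprog. Without Tadys 1 they fell to 24 higher and 21 lower against Tterm and 22 and 10 against Tprog. Without aged Tterm 1 or aged Tterm 3 the first comparison gave 22 and 33 or 26 and 39. Without aged Tprog 2 or aged Tprog 3 the second gave 21 and 12 or 27 and 24. The counts did not fall with every library: the first gave 56 and 65 without aged Tterm 2, and the second 75 and 42 without aged Tprog 1. With Tadys 2 left out in place of Tadys 1, lower calls outnumbered higher ones in both comparisons. The balance thus depended on which of the 2 Tadys libraries was kept. Both comparisons share the Tadys libraries.

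Several regions that were high in Tterm were lower in Tadys. At Itgav, Tadys had 1152 and 1323 normalized reads, aged Tterm 2360.3, 2224 and 2262 and aged Tprog 1660.2, 1732 and 1729. Both Tadys libraries lay below all other endogenous libraries except young Tprog, with which they overlapped, and the difference from Tterm was -0.89 ± 0.14 (log2, SE, limma adjusted p 0.000627). At Pdcd1, Tadys had 1849.5 and 2660.2, both below aged Tterm (log2 -0.74 ± 0.13 (SE), limma adjusted p 0.00197), and without Tadys 1 the difference was -0.47 (limma adjusted p 0.0783). At Havcr2, on which the sort was made, Tadys had 924 and 947, between aged Tprog and aged Tterm (log2 -0.69 ± 0.13 from Tterm and 0.61 ± 0.13 from Tprog, SE, the second not passing with the compared groups fitted alone). The regions over the start of Adrb1 (-0.90 ± 0.16), by Rgs8 (-0.80 ± 0.14) and over the start of Plcg1, a phospholipase downstream of the T cell receptor (-0.66 ± 0.13), were lower than in Tterm as well (log2, SE). The other Adrb1 region was at -0.47 ± 0.14 (log2, SE, limma adjusted p 0.0417), a call lost with equal totals, quantile normalization, a replicate block, the compared groups alone and each of the 5 libraries left out.

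The Tcf7 region, in contrast, had 681 and 569.7 normalized reads in Tadys, above every aged Tterm library and below every aged Tprog library. It was higher than in Tterm by 1.07 ± 0.19 (log2, SE, limma adjusted p 0.00145), and the difference from Tprog of -0.46 ± 0.19 did not pass (SE, limma adjusted p 0.127). Tnfsf8 was higher than in Tterm too (0.70 ± 0.18 (log2, SE), limma adjusted p 0.0208), although that call held in 1 of 5 fits without 1 library and was lost with the compared groups fitted alone.

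Some regions over gene starts were lower in Tadys than in both other aged populations. Naa30, an N-terminal acetyltransferase gene (chr14:49171411-49174650), had 609 and 739.9 normalized reads in Tadys, 1227, 951 and 1096 in aged Tterm and 1226, 1170.0 and 1401 in aged Tprog. The log2 differences were -0.69 ± 0.15 from Tterm and -0.91 ± 0.15 from Tprog (SE, limma adjusted p 0.00586 and 0.00083). Ier5 (chr1:155096772-155099935) had 1268 and 1285, 2187, 2123 and 1986 and 1975, 2058 and 1812 in the same order, with differences of -0.72 ± 0.13 and -0.61 ± 0.13 (SE, limma adjusted p 0.00197 and 0.00667). At both genes the 2 Tadys libraries were the lowest of all 17. Without Tadys 1 the Naa30 difference from Tterm (-0.55, limma adjusted p 0.0855) and the Ier5 difference from Tprog did not pass, and neither did with the compared groups fitted alone.

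Eomes, a T-box factor of memory and exhausted CD8 T cells, had a region over its start (chr9:118476539-118479660) with 727 and 743 in Tadys, 1350.2, 976 and 1267 in aged Tterm and 1257, 1174 and 1184 in aged Tprog. The differences were -0.69 ± 0.16 and -0.71 ± 0.16 (log2, SE, limma adjusted p 0.012 and 0.01), and neither passed without Tadys 1 or with the compared groups fitted alone, nor did the first without aged Tterm 1 or aged Tterm 3. Its second broad region, 392 bp beyond the gene, went the same way (-0.63 ± 0.16 and -0.66 ± 0.16, log2, SE), and its calls were lost in the same 2 ways, the one against Tterm also with quantile normalization and without Tadys 2, aged Tterm 1 or aged Tterm 3. Man2a1 and Man1a, mannosidases of glycoprotein processing, were lower than in Tprog over their starts (-0.72 ± 0.15 and -0.70 ± 0.16, log2, SE), as was a region inside Tnfaip3 (-0.96 ± 0.21, not passing without Tadys 1). Over the lists, transcription factors had 1 of 23 regions higher (Tcf7) and 5 lower than in Tterm. Against Tprog 0 were higher and 6 lower (both at Eomes, and those of Irf4, Klf3, Nfkb1 and Zeb1). Of all 1007 peaks tested at these genes, 28 were higher and 69 lower than in Tterm, and 15 and 64 against Tprog. Feedback and survival regulators had 0 of 15 higher and 4 lower than in Tterm, and 0 and 3 against Tprog. All 488 peaks tested at these genes gave 10 and 38, and 11 and 35. Of the inhibitory receptors, Havcr2 and Pdcd1 were lower than in Tterm, and Havcr2 alone was higher than in Tprog. All 190 peaks tested at that list gave 9 higher and 20 lower, and 6 and 10. In all, 38 of the 81 regions lower than in Tterm and 26 of the 49 lower than in Tprog covered a gene start. Among those higher it was 4 of 52 and 2 of 51. Of all 751 placed broad regions, 41.4% covered one. Of the higher regions, 28 and 26 were under 50 reads per kb, a class in which 0 placed regions covered a start.

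Many of the regions higher in Tadys were thin. Of the 116 regions under 50 reads per kb, 28 were higher than in Tterm and 0 lower (median log2 difference 1.12), and 26 were higher than in Tprog and 0 lower (median 1.16). Above 500 per kb none of 145 was higher than in Tterm and 17 were lower, and 1 was higher than in Tprog and 7 lower. This pattern was present under the other scalings: with quantile normalization the thin class had medians of 1.05 and 1.15. The density classes were chosen after values had been seen. Summed over the 116 thin regions, the Tadys libraries had 48.3 and 36.2 normalized reads per kb, and the other 15 had 13.1 to 34.6, so both Tadys libraries were above all others, the second by little. The next were young Tterm 5 at 34.6 and young Tprog 2 at 33.3, both deeper than either Tadys library. The shallowest library of all, aged Tprog 1, had 29.5, against 14.1 and 16.5 in the deeper aged Tprog 2 and aged Tprog 3. The deepest, young Tterm 2, had the lowest value, 13.1. The part of depth in these levels was not tested. Tadys had the highest group mean in 105 of the 116 thin regions and in 72 of the other 660. Narrower peaks of the same density (10546 autosomal peaks under 3000 bp) gave 49.2 and 34.2 in Tadys and 18.3 to 36.1 in the others, which overlap. Of the 8869 such peaks tested, 2.58% were higher in Tadys than in Tterm (median 0.74), against 24.1% of the thin broad regions. Against Tprog it was 3.04% (median 0.70), against 22.4%. The sets were alike in reads per kb but not in reads per peak. Thin broad regions had a median width of 4002.5 bp, so each held more reads than a narrower peak of equal density. The part this had in the gap was not tested.

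**Figure D5:**
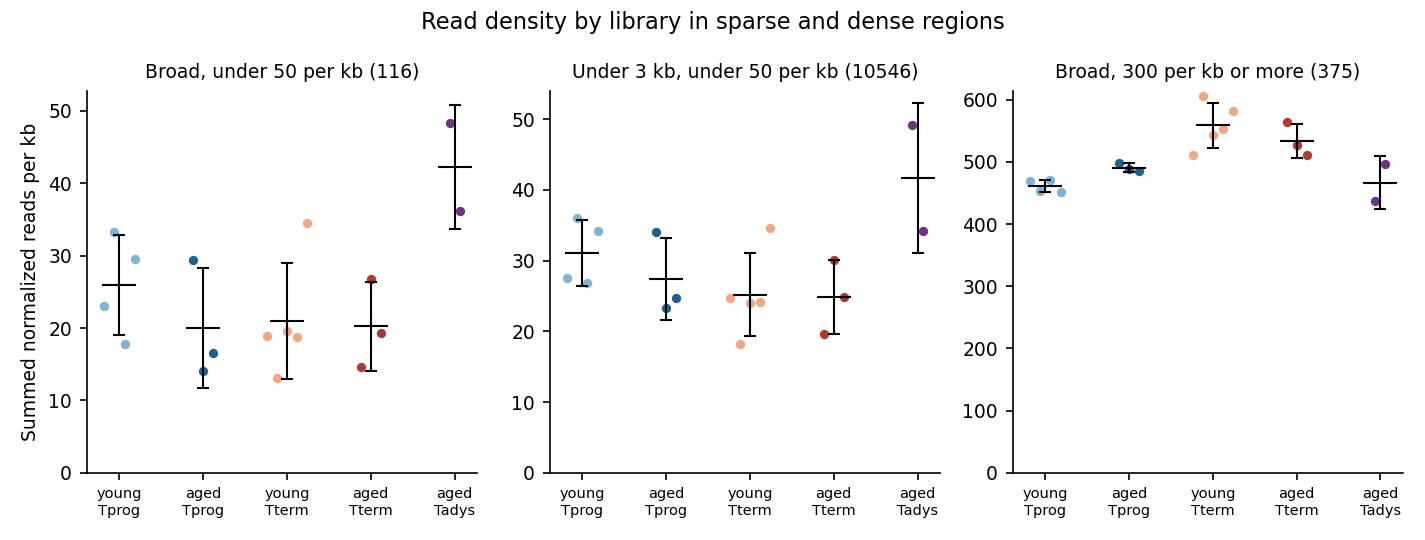
Summed normalized reads per kb (y axis) for each library (points) of the 5 groups (x axis), with group mean and SD, in 116 thin broad regions, 10546 thin peaks under 3000 bp and 375 broad regions of 300 reads per kb or more. Both Tadys libraries (48.3 and 36.2) lie above the other 15 in the thin broad regions.

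These counts moved with the samples fitted. With the compared groups alone they were 16 higher and 0 lower against Tterm and 8 and 0 against Tprog. Against Tterm the thin regions gave 4 higher and 3 lower without Tadys 1, 18 and 0 without Tadys 2, 6 and 0 without aged Tterm 1 and 10 and 0 without aged Tterm 3. Against Tprog they gave 4 and 2 without Tadys 1, 47 and 0 without aged Tprog 1, 4 and 0 without aged Tprog 2 and 7 and 0 without aged Tprog 3. The part that depth had in them was not tested. The thin regions also carried few reads. One 617 bp from Gcnt2, a glycosyltransferase gene (chr13:40961509-40965098, 15.6 per kb), gave the largest difference from Tprog (2.76 ± 0.51, log2, SE) on 126 and 161 normalized reads in Tadys against 53.8, 16.2 and 9.14 in aged Tprog.

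A second kind of region higher in Tadys lay at the beginning of chromosomes. In the mouse assembly the first sequence of each chromosome follows a long gap that stands for the centromere. Of 19 broad regions starting before position 3300000, on 9 chromosomes, 11 were higher and 1 lower in Tadys than in Tterm (median 0.97), and 10 were higher and 0 lower than in Tprog (median 0.98). This window was chosen after values had been seen, so the counts are a description. Of all peaks tested, 2.06% were higher and 4.23% lower in Tadys than in Tterm, and 2.61% and 4.04% than in Tprog. Narrower peaks in this window are not described here, so the pattern is not shown to be particular to broad regions. The density of the 19 regions ran from 24.4 to 1195 per kb, so they were not all thin. The one by Vmn1r2 (chr4:3080281-3085766) had 2302 and 2689 normalized reads in Tadys, 1181, 1415 and 1219 in aged Tterm and 1241, 1115 and 1106 in aged Tprog. In young libraries it had 2448, 1858, 1509.8 and 2146 in Tprog and 1875, 1134, 1306, 1502 and 1574 in Tterm, so that single young libraries reached the level of Tadys there. One on chromosome 16 (chr16:3231605-3238467) had 1617 and 2388 in Tadys, 751, 1069 and 849 in aged Tterm and 1079.9, 846 and 806 in aged Tprog. Higher regions outside this window included one 41568 bp from Gm45988 (chr7:64078303-64089306, 1.04 ± 0.19 from Tterm) and one 49375 bp from Gm21119, of a repeated family (chr8:20696124-20706882, 1.45 ± 0.30, log2, SE). Some intergenic regions that were higher in aged Tterm than in aged Tprog were higher in Tadys than in aged Tprog as well. They lay at chr12:25266825-25270513 (1.11 ± 0.18), chr12:25225972-25229380 (0.90 ± 0.15) and chr2:166446110-166449204 (0.76 ± 0.14, log2, SE). These calls held in all 5 fits without 1 library, and the regions on chromosome 12 had 172 and 220 reads per kb.

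The same stretches could be looked up in a second table of the series, which held 21 libraries of naive spleen cells and of OT-1 cells, whose transgenic receptor recognizes ovalbumin. The OT-1 cells came from tumours on day 15. Young and aged stand for 10-12 and 64-68 weeks in the naive and OT-1 groups too. Whether the OT-1 age is that of the donor or of the host is not given here. This second table was normalized apart, so levels are not set across the tables. All 776 broad regions overlapped its peaks, 916 in all, and 82.5% overlapped a peak that was itself 3000 bp or wider. In 136 the stretch was split into 2 or 3 peaks there. In young OT-1 cells (2 Tprog, 7 Tterm) 57 of 913 tested peaks in broad regions were higher in Tterm and 21 lower (limma with a term for batch 6, 8.54%, against 7.63% of all peaks tested, 4.06% higher and 3.57% lower). In batch 4 & 5 alone 99 were higher and 32 lower (14.3%), and batch 6 held no young Tprog. Without young OT-1 Tprog 1 the counts were 16 and 10, and without young OT-1 Tprog 2 14 and 6.

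Of 265 OT-1 peaks in regions called higher in young endogenous Tterm, 48 were higher in OT-1 Tterm and 1 was lower (inside Wee1), with a median of 0.48. Of 55 in regions called lower, 0 were higher and 12 lower, with a median of -0.51. Of 593 in regions not called, 9 were higher and 8 lower. At Adrb1 the peak over the start had 151 ± 15.2 (SD, n = 2) normalized reads in young OT-1 Tprog and 571 ± 104 (SD, n = 7) in OT-1 Tterm, and at Tcf7 466 ± 20.6 (SD, n = 2) and 186 ± 31.8 (SD, n = 7). Their log2 differences were 1.88 ± 0.22 and -1.37 ± 0.22 (SE, limma adjusted p 3.67e-06 and 0.000216). Itgav passed at 0.84 ± 0.26 (SE, limma adjusted p 0.0414), Tnfsf8 at -1.23 ± 0.25 (SE, limma adjusted p 0.00235), and the main Pdcd1 peak did not at 0.45 ± 0.26 (SE, limma adjusted p 0.356). With age, 0 of the 913 peaks were higher and 1 lower in OT-1 Tterm (limma, 0.110%, against 0.266% of all peaks tested, 0.0880% lower). In batch 4 & 5 alone 12 were higher and 6 lower (1.97%). The call over both batches lay at Spry2, an inhibitor of receptor kinase signalling (log2 -1.02 ± 0.17 (SE), limma adjusted p 0.00508). Odc1, the region that differed by age in endogenous Tterm, had 459 ± 81.3 (SD, n = 7) in young and 528 ± 91.3 (SD, n = 6) in aged OT-1 Tterm.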

How the data were processed

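The signal values are ATAC-seq read counts per peak divided by a factor for each library, as deposited by the authors in 2 tables, 1 for endogenous cells (17 libraries) and 1 for naive and OT-1 cells (21 libraries). The submitters' processing notes name the aligner Bowtie2 (2.2.9), the peak caller MACS2 (2.1.1), Picard (2.8.0), SAMtools (1.3.1), DESeq2 (1.28.1) and the build mm10, and the step that merged peaks across libraries is not stated there. In every library 100% of values were whole multiples of what 1 read is worth (tolerance 0.01 reads), which gave reads in peaks.

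Peaks with a mean of 10 or more were tested with limma 3.58.1 (R 4.3.3) on log2(value + 1), all 5 endogenous groups in one model with a trended prior, and in the second table (84091 peaks tested) with a term for batch 6. P-values were adjusted over all peaks tested. A fold on this scale understates the change of low regions. Alternatives were equal library totals, quantile normalization, edgeR 4.0.16 and DESeq2 1.42.0 on recovered reads, a replicate block, the compared groups alone, other widths and each library left out.

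Nearest protein-coding genes (within 100000 bp) and starts came from RefSeq GRCm38.p6, with no genome at hand. Named regions were the 10 widest, the 5 highest and 5 lowest in density, 3 on each side of the width threshold, up to 8 in each direction with the lowest adjusted p and values that did not overlap, and up to 6 per gene list. The regions and lists were chosen with earlier results of these data known.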

Additional observations from a re-analysis of the deposited data

Results flagged for a closer look

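In 82 groups of 4 or 5 libraries at the named regions, 3 held 1 library far from the others by Dixon's test, while chance alone flags about 1 in 20 such groups. Young Tterm 2, the deepest library, stood high at Ier5 with 2441 normalized reads and at Naa30 with 1308. Young Tterm 5 stood low at St6gal1 with 391 normalized reads.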

How the results depend on the processing

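The percentage of the 776 broad regions called was within 1.5 times its value under the other scalings and tools for young and aged Tterm against Tprog, and the directions of named regions held except at Ier5 in young Tterm against Tprog, which turned to -0.061 with quantile normalization. Over all named regions and alternatives, 1227 values kept direction and side of the threshold and 125 no longer passed. With the width limit at 4000 bp, 8.50% were called in aged Tterm against Tprog, 28.8% in Tadys against Tterm and 22.9% in Tadys against Tprog, and 28.4% lay at a gene start. For Tterm by age (0.129%) the value was 0.258% with equal totals, quantile normalization, edgeR or the compared groups alone, 0.515% with DESeq2, 0.0489% at 2500 bp and 0% at 4000 bp. For Tprog by age (0.515%) it was 0.773% with quantile normalization and 1.80% with DESeq2, and the test of age by population gave 0.258% with DESeq2. Fitting the compared groups alone gave 6.06% (33 higher, 14 lower) for Tadys against Tterm and 3.61% (25 and 3) against Tprog, and in thin regions 13.8% and 6.90%. Equal totals moved the median density to 289.8 in young Tprog, 288.5 in aged Tprog and 287.1 in young Tterm.

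Same-numbered libraries did not deviate together (correlations from -0.27 to 0.28 over 25 pairs), so the numbers were not taken as pairs. With a replicate block the calls were 177 higher and 60 lower in young and 65 and 23 in aged Tterm against Tprog, 0% of regions for Tterm by age, 0.258% for Tprog by age, 42 and 53 for Tadys against Tterm and 49 and 35 against Tprog. For OT-1 the block gave 4.60% in young Tterm against Tprog and 0.219% by age. Young OT-1 Tterm against Tprog gave 15.8% with equal totals, 13% with edgeR and 14.3% in batch 4 & 5 alone, and OT-1 Tterm by age 0.438%, 0.219% and 1.97%.

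With 1 library left out the called share ran from 26.8% to 35.8% in young and 7.22% to 11.7% in aged Tterm against Tprog, 0% to 0.129% for Tterm by age, 0.129% to 0.644% for Tprog by age, 5.80% to 17.1% for Tadys against Tterm and 4.12% to 17.3% against Tprog. In thin regions it ran from 5.17% to 26.7% and from 3.45% to 40.5%. In OT-1 cells it ran from 2.19% to 12.4% and, by age, from 0.110% to 0.438%. The causes of these movements were not tested. Libraries of young Tprog varied by a median coefficient of variation of 38.2% in thin regions and 8.22% above 500 reads per kb.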

Other observations

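Naive CD8+ T cells from the spleens of young and aged mice, with 2 libraries of each in the second table, entered no comparison above. Their values in the 5 broad regions called by age in Tterm or Tprog are given as they stand, in normalized reads of that table summed over its peaks that overlap the region. At Odc1 the aged libraries had 772 and 628 and the young ones 386 and 421. Cacng8 had 403 and 326 in aged and 105 and 77.0 in young naive cells, and the region of Sp110 and Sp140 had 613 and 586 against 388 and 406. The intergenic region on chromosome 6 had 643 and 690 against 296 and 260. At these 4 regions, the ones called higher with age in tumour-infiltrating cells, both aged naive libraries were above both young ones, also when libraries were scaled to equal totals (CPM). At the region by Vmn1r2, the one called lower with age in Tprog, the aged libraries had 506 and 549 and the young ones 663 and 541, which overlap, while in CPM both aged libraries were below (40.7 and 46.5 against 65.0 and 52.4).

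Such an order was common. Both aged naive libraries were above both young ones at 40.7% of 84091 peaks of the second table and at 63.1% of the broad regions, and below them at 24.9% and 20.9%. In CPM, a scaling added after the values had been seen, the shares were 27.7% and 42.1% above and 37.8% and 35.2% below. With 2 libraries on each side no test was made.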
